A study of Mus musculus with 15 samples.

Results

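The oxidative phosphorylation (OXPHOS) subunits encoded by nuclear and by mitochondrial DNA were followed through kidney and lung RNA of mice with fibrotic injury. Members were taken by name and not by any measured value. They are the protein-coding genes whose symbol starts with *mt-Nd*, *mt-Co*, *mt-Atp* or *mt-Cyt*, or that carry a symbol of the *Ndufa*, *Ndufb*, *Ndufc*, *Ndufs* and *Ndufv* series, *Sdha* to *Sdhd*, *Uqcr*, *Cox4* to *Cox8* or *Atp5*. This gave 101 of the 56748 genes listed, 13 of them mt- encoded and 88 nuclear. The complexes of the respiratory chain hold 39 (I), 4 (II), 8 (III) and 19 (IV) of the nuclear members, and 18 belong to ATP synthase, complex V. *Ndufa4* and *Ndufa4l2* are counted with complex I by their symbols, although the NDUFA4 protein is known as a subunit of complex IV. All 13 mt- genes and 84 of the nuclear genes had enough counts to be tested. *Ndufb11b*, *Cox7b2*, *Cox8c* and a second row for *Atp5o* had too few, and 2 of the nuclear members had no count in any library.

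OXPHOS couples the passage of electrons from NADH and succinate to oxygen with the pumping of protons across the inner mitochondrial membrane, and ATP synthase uses the resulting gradient to make ATP. Complex II is built from nuclear genes alone, whereas each of the other complexes joins a few mt- encoded subunits at its core to many nuclear ones. The mt- genes are transcribed as long polycistronic RNAs inside the organelle by their own polymerase, and the nuclear genes by RNA polymerase II. Proximal tubule cells of the kidney rely on mitochondrial fatty acid oxidation and are rich in mitochondria.

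The mice were male, wild type and C57Bl/6, and each of 5 groups was sampled with 3 libraries. WTK mice received vehicle (NaHCO3), and their labels name no antibody. IgGK and LepK mice received 1 intraperitoneal dose of folic acid (200 mg/kg), which injures renal tubules, and then control IgG or LepAb, a monoclonal antibody that neutralizes leptin, at 10 mg/kg every other day for 21 days from day 1. Their kidneys were collected at day 28, and the kidney mice were 10 to 12 weeks old at injection. IgGL and LepL mice, 12 weeks old, received bleomycin into the trachea (1.5 units/kg) and the same 2 antibodies for 14 days, and their lungs were collected at day 14. No uninjured lung was analysed here, so organ, injury and day of collection cannot be told apart between kidney and lung. In such bulk tissue, fewer cells of a type and less RNA per cell cannot be told apart either.

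Total counts ranged from 25913969 to 38924788 per library. The defining markers of each tissue were present in the libraries labelled with it. The summed level of 10 proximal tubule genes was 10122 to 44149 FPKM in kidney and 180 to 253 FPKM in lung, and 5 genes of alveolar type 2 cells summed to 3147 to 13202 FPKM in lung and to at most 48.05 in kidney. IgGK replicates 1 and 2 stood apart from the other libraries by transcripts of adrenal cortex. Its 5 marker genes summed to 4.05 to 225 FPKM in IgGK and to no more than 1.999 FPKM in any other group, with *Cyp11b1* and *Cyp11b2* at 0 in all WTK libraries. IgGK replicate 3, at the lower end of that range, had *Cyp21a1*, *Hsd3b1* and *Cyp11b1* at 81, 81 and 39 counts, against 0 to 4 in WTK and LepK. The counts of members called against IgGK are therefore also given without replicates 1 and 2, which does not leave an IgGK library free of these transcripts.

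In vehicle-treated kidney most counts on subunit genes were mt- encoded. The 13 mt- genes held 9.35, 9.499 and 9.29% of the counts of the WTK libraries, and the nuclear members held 2.27 to 2.39%. In IgGK the mt- share was 6.17, 5.75 and 5.76%, and the nuclear share was 1.81 to 1.89%. LepK had mt- shares of 9.54, 8.48 and 7.90% and nuclear shares of 2.16 to 2.17%. These fell between IgGK and WTK, except for the mt- share of LepK replicate 1, which was above all WTK libraries. Lung held far fewer, with mt- shares of 1.16 to 1.56% in IgGL and 1.76 to 2.01% in LepL and nuclear shares of 0.728 to 0.822% and 0.787 to 0.809%. The IgGK libraries overlapped neither WTK nor LepK in either share, and in lung only the mt- shares of the antibody groups were apart.

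The ratio of mt- to nuclear counts within a library does not depend on how libraries are scaled against each other. Its mean was 4.02 ± 0.0910 for WTK, 3.19 ± 0.147 for IgGK and 3.99 ± 0.396 for LepK (SD, n = 3 libraries each). In lung the ratio was 1.84 ± 0.372 in IgGL and 2.39 ± 0.181 in LepL. The IgGK values (3.04 to 3.34) lay below those of WTK (3.95 to 4.12) and LepK (3.64 to 4.42), while WTK and LepK overlapped. Per count on the nuclear members, counts on mt- members were thus fewer in IgGK than in WTK. They were more with LepAb than with IgG in both organs (2.1997 to 2.56 in LepL, 1.42 to 2.11 in IgGL). Counts are not corrected for gene length. In summed FPKM the ratio was 5.40 to 5.69 in WTK, 3.84 to 4.25 in IgGK and 5.89, 4.97 and 4.66 in LepK. Capture of mt- RNA in these poly(A)-enriched libraries was not measured. No test was made of this ratio, a score over the members.

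**Figure D1:**
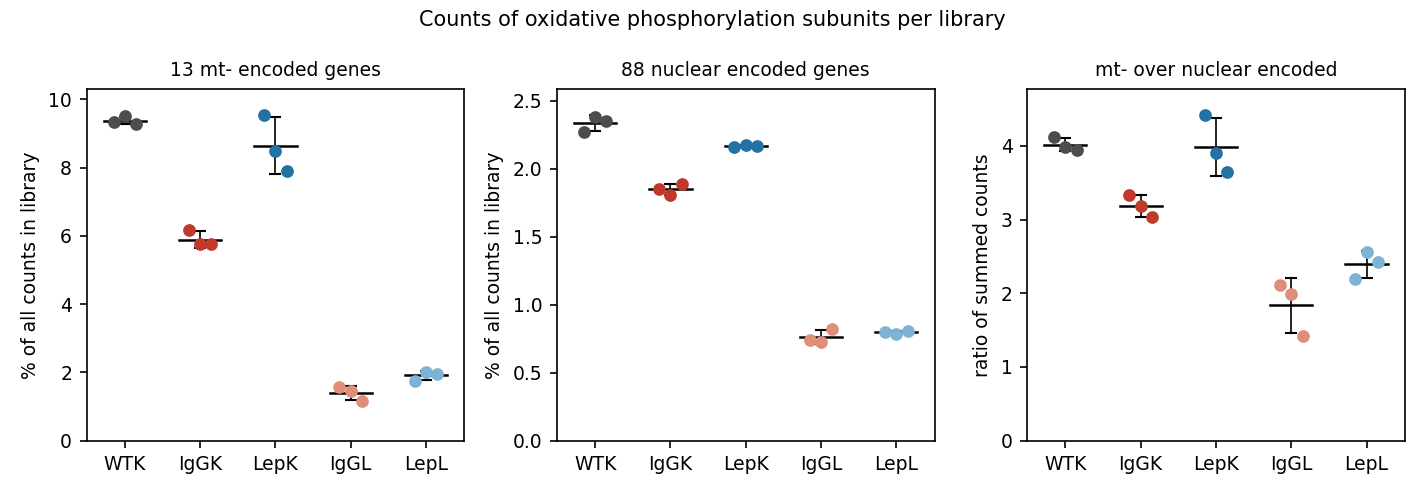
Share of all counts (%) on the 13 mt- encoded members and on the 88 nuclear members, and the ratio of the summed counts, for each library in the 5 groups. Points are libraries, horizontal lines are means and vertical bars are the SD of 3 libraries. The 3 IgGK points lie below all WTK and LepK points in each panel, and the lung groups lie below the kidney groups.

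The first comparison asked how the subunits differed between folic acid-injured kidney with control IgG and vehicle kidney. All 13 mt- members and 64 of the 84 nuclear members tested were lower in IgGK, and 2 nuclear members were higher. Over all genes tested, 15.6% were called lower and 21.7% higher at the same thresholds, an absolute log2 fold change over 0.5 and an adjusted p under 0.05. At the adjusted p alone, 78 nuclear members were lower, beside 25.7% of all genes. The median log2 fold change was -1.29 for the mt- members and -0.64 for the nuclear members, beside 0.041 over all genes. The members' libraries did not overlap between IgGK and WTK for 12 of 13 mt- and 82 of 84 nuclear members, beside 62.6% of all genes. Without IgGK replicates 1 and 2, 12 mt- and 62 nuclear members were lower. The median of all genes was 0.48 when libraries were scaled by their size alone. Then 12 mt- members were lower, and 8 nuclear members were lower and 4 higher, with medians of -0.85 and -0.20. The share of all genes called with this scaling, or without IgGK replicates 1 and 2, is not given here.

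Members of every complex were lower. The median log2 fold change of its nuclear members was -0.69 in complex I (30 of 38 lower), -0.96 in complex II (4 of 4), -0.62 in complex III (6 of 8), -0.55 in complex IV (11 of 17, 2 higher) and -0.63 in complex V (13 of 17). Complex II, which has no mt- subunit, had the lowest nuclear median.

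*Atp5b* (ENSMUSG00000025393, chromosome 10, 127919142 to 127926260, GRCm39) encodes the catalytic beta subunit of ATP synthase and was the nuclear member that fell most. It had 686, 714 and 687 FPKM in WTK, 307, 264 and 296 in IgGK and 470, 384 and 400 in LepK. Each group was apart from the others, with LepK in between. The log2 fold change of IgGK against WTK was -1.23 (standard error, SE, 0.09; edgeR adjusted p = 2.54e-07).

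*Sdhb* (ENSMUSG00000009863, chromosome 4, 140688514 to 140706504), the iron-sulfur subunit of succinate dehydrogenase (complex II), had 166, 173 and 172 FPKM in WTK, 78.5, 67.9 and 74.1 in IgGK and 127, 106 and 105 in LepK. Its log2 fold change in IgGK was -1.18 (SE 0.08, edgeR adjusted p = 2.53e-07). *Sdha*, the flavoprotein of the same enzyme, went from 190 to 197 FPKM in WTK to 87.0 to 97.1 in IgGK (log2 fold change -1.04, edgeR adjusted p = 2.04e-07). *Uqcrc2*, a core protein of complex III, had 120 to 124 FPKM in WTK and 49.4 to 58.7 in IgGK, and it fell by 1.13 on the log2 scale. *Ndufs1*, the largest iron-sulfur subunit of complex I, had 29.1 to 32.1 FPKM in WTK and 12.7 to 14.4 in IgGK, a fall that measured -1.10. In all of these the lowest WTK library was above the highest IgGK library. *Uqcrc1* (log2 fold change -0.93) and *Cox5a* (-0.87) of complexes III and IV were also called.

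**Figure D2:**
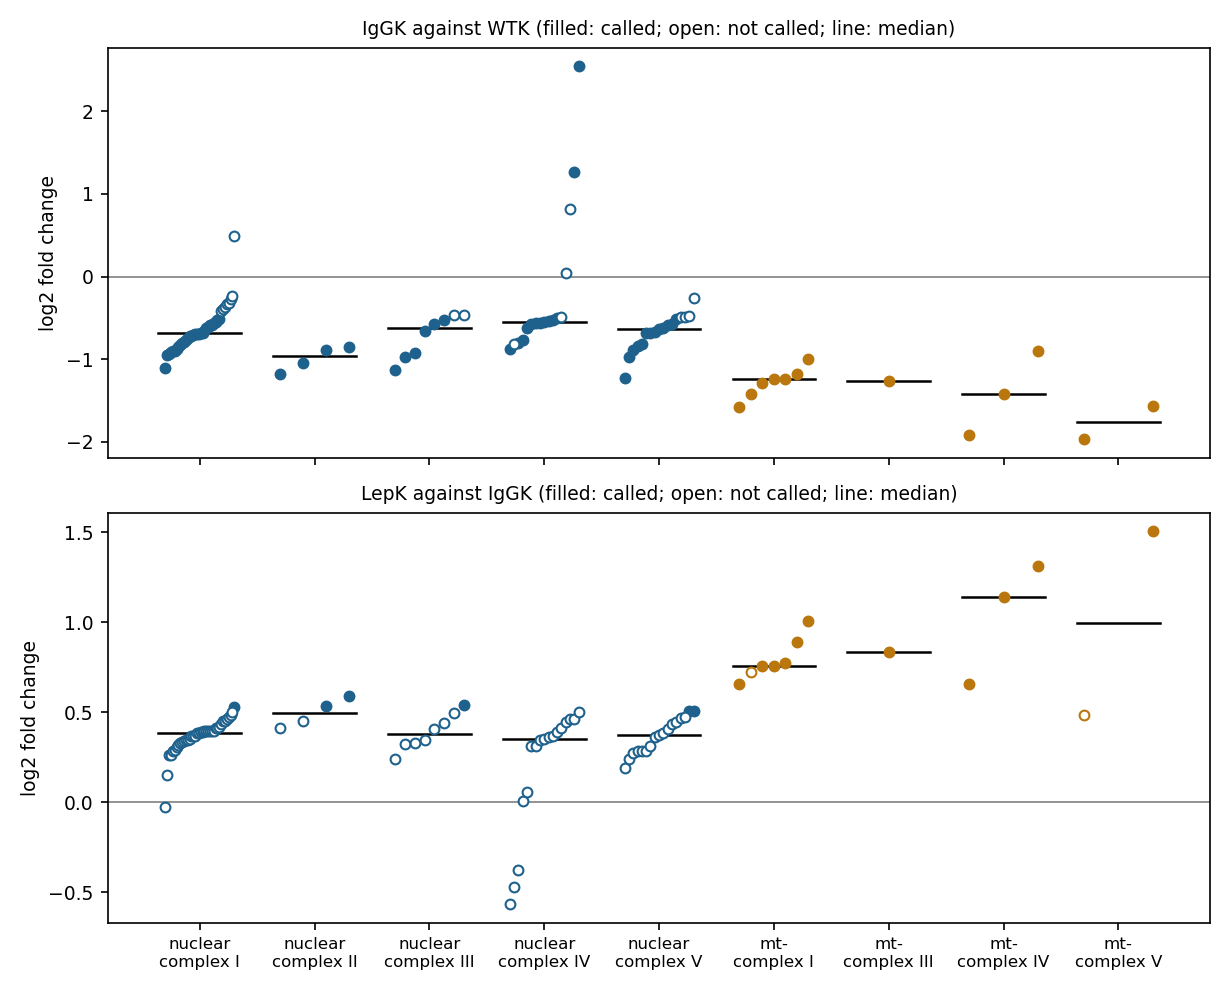
Log2 fold change of each member by complex and genome for IgGK against WTK (upper panel) and LepK against IgGK (lower panel), from the edgeR fit of 9 kidney libraries. Filled points passed both thresholds, open points did not, and lines are medians. All mt- points lie below 0 in the upper panel and above 0 in the lower panel, and *Cox8b* and *Cox6b2* are the 2 filled nuclear points above 0 in the upper panel.

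The 2 nuclear members that rose were tissue-restricted isoforms of cytochrome c oxidase. *Cox8b*, known from heart, muscle and brown fat, had 8.28, 2.27 and 6.06 FPKM in WTK, 20.5, 40.9 and 32.8 in IgGK and 30.2, 17.7 and 16.9 in LepK. IgGK exceeded WTK by a log2 fold change of 2.54 (SE 0.39, edgeR adjusted p = 0.000121) and 2.61 without IgGK replicates 1 and 2. *Cox6b2*, known from testis, had 3.74, 5.63 and 4.75 FPKM in WTK and 10.3, 14.8 and 7.92 in IgGK (log2 fold change 1.26, edgeR adjusted p = 0.00104). Without IgGK replicates 1 and 2 its log2 fold change was 0.79 and the call was lost. Of 4 markers of brown adipocytes, 3 were also higher in IgGK, with *Elovl3* at 0 counts in WTK replicate 3. Their summed levels were 12.8 to 19.3 FPKM in WTK, 35.3 to 58.2 in IgGK and 27.4 to 48.4 in LepK. The fourth, *Ppargc1a*, which is also on the list of regulators, was lower. Counts of single libraries are given for 1 of these markers, *Ucp1*, beside both isoforms. In IgGK replicates 1 to 3, *Ucp1* had 834, 1705 and 1078 counts. *Cox8b* had 277, 640 and 508 counts there, *Cox6b2* had 428, 711 and 378, and replicate 2 was highest for each. In LepK replicates 1 to 3 the brown adipocyte marker *Ucp1* had 1162, 808 and 492 counts. *Cox8b* had 401, 232 and 202 counts there, and *Cox6b2* had 247, 434 and 332. Of 4 adipocyte markers, 3 were higher in IgGK and 1 was lower. Their part in the 2 isoforms' values was not tested.

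*Cox7a2l* stood out among the members that were not called. It encodes a factor that joins complexes III and IV in supercomplexes, and had 77.1, 79.0 and 81.5 FPKM in WTK, 78.3, 74.6 and 85.4 in IgGK and 85.6, 83.3 and 83.4 in LepK. The WTK and IgGK libraries overlapped, and the log2 fold change was 0.04 (95% interval -0.12 to 0.20), or -0.013 without IgGK replicate 3. Other common isoforms were lower in IgGK, with log2 fold changes of -0.55 for *Cox4i1*, -0.56 for *Cox6a1*, -0.80 for *Cox7a2*, -0.54 for *Cox8a* and -0.88 for *Ndufa4*. *Atpif1*, the inhibitor of ATP synthase, which the rule does not take in, had 52.4 to 61.4 FPKM in WTK, 45.2 to 49.5 in IgGK and 53.5 to 59.0 in LepK.

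Level and length were set against the signed fold change. Across the 84 nuclear members, the log2 fold change of IgGK against WTK had a Spearman's rho of -0.40 with mean CPM and -0.33 with transcript length. For LepK against IgGK these values were 0.42 and 0.23. The members share libraries and depth, so no p is given, and the highest value, that of *Cox8b*, belongs to a member with few counts.

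The 3 genes of the c subunit, which forms the membrane ring of ATP synthase, differed in their fold changes although they encode the same mature protein. *Atp5g1* had 48.8, 48.7 and 49.8 FPKM in WTK and 30.7, 28.7 and 33.1 in IgGK. *Atp5g2* had 92.3, 91.0 and 90.3 FPKM in WTK and 73.1, 69.1 and 80.5 in IgGK. *Atp5g3* had 305, 313 and 318 FPKM in WTK and 179, 157 and 174 in IgGK. All 3 genes had no overlap between these groups, but the log2 fold change was -0.84 (SE 0.07) for *Atp5g3*, -0.63 (0.07) for *Atp5g1* and -0.26 (0.07) for *Atp5g2*. The last did not pass the threshold on fold change (edgeR adjusted p = 0.00551), and with scaling by library size alone it was 0.18. Reads of *Atp5g1* are uncertain, since a near-identical copy took 19.7% of the counts of both. The difference between the 3 genes was not tested. Their promoters are shown because they differ in binding motifs of factors known to act on OXPHOS genes. Each line is the 100 bases before the transcription start, from RefSeq on GRCm38.p6, 5′ to 3′ on the gene's strand (minus for all 3). Capitals mark a full match to a searched motif on either strand, and where none is in capitals no searched motif was found.
Atp5g1, chr11:96075632-96075731: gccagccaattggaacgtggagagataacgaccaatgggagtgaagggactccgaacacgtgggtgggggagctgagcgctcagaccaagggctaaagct
Atp5g2, chr15:102671048-102671147: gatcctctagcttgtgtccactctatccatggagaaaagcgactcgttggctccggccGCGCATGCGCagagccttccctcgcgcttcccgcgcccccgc
Atp5g3, chr2:73911327-73911426: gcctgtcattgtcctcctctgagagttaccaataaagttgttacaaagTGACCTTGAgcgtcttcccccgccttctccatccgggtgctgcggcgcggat

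The capitals in *Atp5g2* are the motif of NRF1, 42 bases before the start, and those in *Atp5g3* are the motif of estrogen-related receptors (ERR), searched as TCAAGGTCA, 52 bases before the start. In promoters of 300 bases (250 before and 50 after the start), which were found for 69 of the 87 nuclear symbols, the NRF1 motif was in 7.25% of members and 1.07% of all genes. An ERR motif was in 2.90% (*Atp5g3* and *Sdhd*) and 0.466%. The ETS motif CCGGAAG was in 24.6% and 9.93%, and the YY1 motif AAGATGGC in 14.5% and 3.19%. The motifs were searched on both strands and may overlap. Members with a motif had a median log2 fold change in IgGK of -0.51 (NRF1, 5 members), -0.57 (ETS, 17), -0.57 (YY1, 10) and -0.84 (ERR, 2), and those without it had -0.66, -0.69, -0.65 and -0.63. A match describes letters in a window and was not tested as a binding site.

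The 13 mt- genes fell by unequal amounts. *mt-Co1* (ENSMUSG00000064351, chromosome MT, 5328 to 6872), the catalytic subunit of cytochrome c oxidase, had the highest level of all members, with 18278, 19066 and 18572 FPKM in WTK, 10399, 9268 and 9473 in IgGK and 17727, 15103 and 13933 in LepK. Its log2 fold change in IgGK was -0.90 (SE 0.09, edgeR adjusted p = 3.72e-06), which was the smallest fall among the mt- genes. *mt-Cytb* (MT, 14145 to 15288), cytochrome b of complex III, had 17181, 17218 and 16657 FPKM in WTK, 7171, 6558 and 6972 in IgGK and 14721, 11849 and 10967 in LepK, with a log2 fold change of -1.27 in IgGK (edgeR adjusted p = 5.44e-07). *mt-Atp6* (ENSMUSG00000064357, MT, 7927 to 8607), subunit a of ATP synthase, had 692, 1041 and 696 FPKM in WTK, 209, 172 and 225 in IgGK and 705, 669 and 373 in LepK. It fell furthest, with a log2 fold change of -1.97 (SE 0.22, edgeR adjusted p = 9.57e-06). *mt-Nd6*, the mt- member on the opposite strand of the circle, had a log2 fold change of -1.17 and 3878 to 4117 FPKM in WTK against 1626 to 1802 in IgGK. Libraries were not directional, so its reads cannot be told from RNA of the opposite strand.

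**Figure D3:**
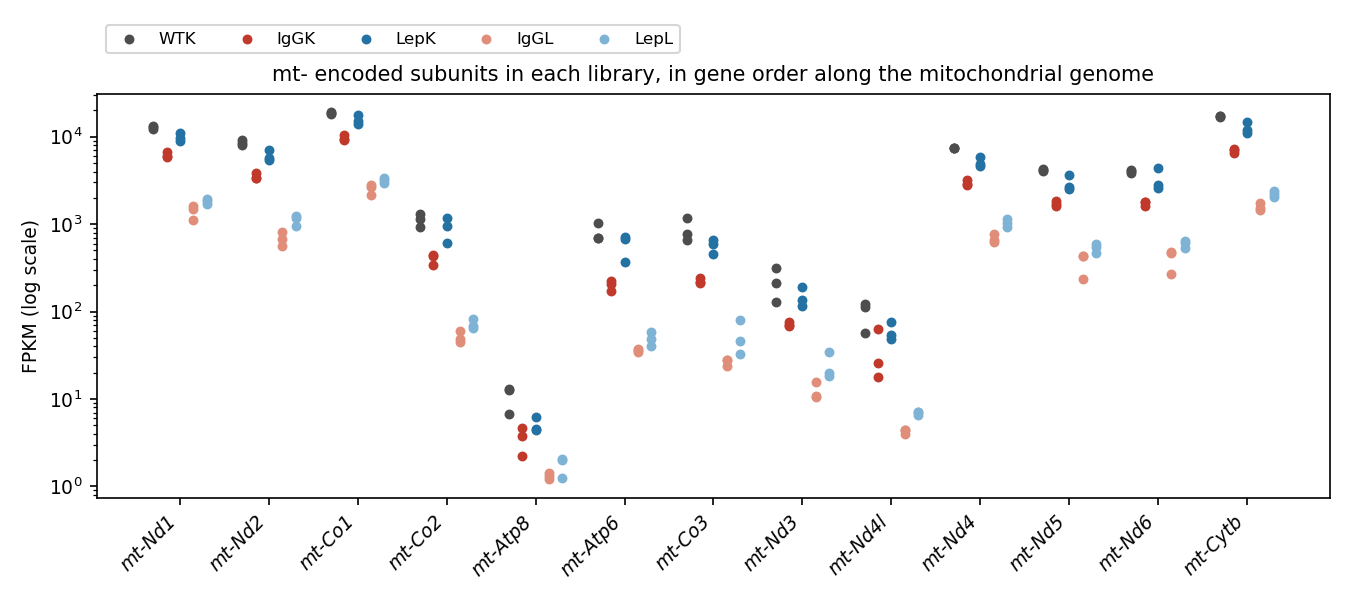
FPKM (log scale) of the 13 mt- encoded members in each of the 15 libraries, in gene order along the mitochondrial genome, with points for libraries coloured by group. *mt-Co2*, *mt-Atp8*, *mt-Atp6*, *mt-Co3*, *mt-Nd3* and *mt-Nd4l* lie well below the other 7 genes in every group, and within each gene the lung points lie below the kidney points.

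The low level of 6 neighboring mt- genes goes with a copy of that stretch in the nuclear genome. A run of 7 pseudogenes on chromosome 1 (24650616 to 24655278, GRCm39 as in the deposited table) matches *mt-Co1* and *mt-Nd4* in part and *mt-Co2*, *mt-Atp6*, *mt-Co3*, *mt-Nd3* and *mt-Nd4l* whole, and *mt-Atp8* lies between them. Counts given to the copies were 30.6 to 38.3% of those given to copy and gene together for the 5 wholly copied genes, but 0.669% for *mt-Co1* and 1.02% for *mt-Nd4*. *mt-Nd3* shows how alike they are, with 1 mismatch in the 345 bases aligned to its copy Gm28438, T3C counted from the first base of the gene (the mt- base first). The first 33 bases of each, from GENCODE vM21 transcripts (GRCm38), are printed with that base in capitals.
mt-Nd3: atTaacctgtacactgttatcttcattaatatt
Gm28438: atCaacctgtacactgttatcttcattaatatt

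How the authors' counting treated reads that fit both places is not given in the sources used here. The levels of these 6 genes are therefore not comparable with those of the other 7, and they held 0.845 to 2.71% of the counts on mt- genes per library across the groups. In IgGK against WTK their median log2 fold change was -1.57, beside -1.24 for the 7 genes without a whole copy on chromosome 1. Among these 7, *mt-Co1* has a whole copy on chromosome 2, Gm13340 (97.6% identity), which had 86 to 1036 counts per library. Without the 6 genes, the ratio of mt- to nuclear counts was 3.92 ± 0.102 for WTK, 3.14 ± 0.145 for IgGK and 3.90 ± 0.380 for LepK (SD, n = 3 libraries). Among transcripts annotated as pseudogenes, near-identical copies (97% identity or more) were found for 15 of the nuclear members. Copies annotated otherwise, such as protein-coding entries, were not searched. The copies found held over 10% of the joint counts for *Atp5l* (29.1%), *Ndufa12* (26.3%), *Atp5g1*, *Atp5h* (13.4%) and *Uqcrb* (10.8%).

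The second comparison asked how leptin neutralization changed the subunits in injured kidney. In LepK against IgGK, 11 of the 13 mt- members were higher and none was lower, and 6 of 84 nuclear members were higher and none was lower. Over all genes tested, 4.38% were called higher and 5.99% lower. At the adjusted p alone 73 nuclear members were higher, beside 11% of all genes. Of the nuclear members 74 did not overlap between the groups, beside 37.4% of all genes. Most nuclear members thus passed the test with a fold change under the threshold. The median log2 fold change was 0.77 for mt- members and 0.38 for nuclear members, beside -0.012 over all genes. The nuclear count of 6 rested on single libraries. It was 2 without LepK replicate 1, 3 without IgGK replicate 2, 13 without IgGK replicate 1, 11 without IgGK replicate 3, 15 without LepK replicate 2, and 3 without IgGK replicates 1 and 2 (where 9 mt- members were higher). With scaling by library size alone, no nuclear member and 9 mt- members were higher, and the median of all genes was -0.19. For this scaling and the left-out libraries the share of all genes called is not given here. These counts thus have no such share to be read against.

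The nuclear members called were *Sdhb* and *Sdhc* of complex II, *Uqcrfs1*, *Ndufa10*, *Atp5b* and *Atp5g3*. *Sdhb* had a log2 fold change of 0.59 in LepK (SE 0.08, edgeR adjusted p = 0.000685), with the FPKM values given above. *Sdhc*, a membrane anchor of complex II, had 63.1, 57.3 and 60.3 FPKM in IgGK and 94.5, 86.3 and 85.6 in LepK (log2 fold change 0.53, edgeR adjusted p = 0.000366). *Uqcrfs1*, the Rieske iron-sulfur protein of complex III, had 156, 133 and 142 FPKM in IgGK and 233, 192 and 212 in LepK (0.54, adjusted p = 0.00109). *Ndufa10*, an accessory subunit of complex I, had 41.5, 37.0 and 40.5 FPKM in IgGK and 67.7, 55.4 and 51.5 in LepK (0.53, adjusted p = 0.00198). The log2 fold change was 0.51 for both *Atp5b* and *Atp5g3*. In these genes every LepK library was above every IgGK library, and LepK replicate 1 was the highest of them. Just under the threshold were *Uqcrc1* (0.49), *Cox5a* (0.46), *Sdha* (0.45) and *Ndufs1* (0.45). *Cox8b* (-0.57, edgeR adjusted p = 0.293) and *Cox6b2* (-0.38, adjusted p = 0.318) overlapped between the groups.

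Among the mt- genes, *mt-Atp6* and *mt-Co3* differed most. *mt-Atp6* had a log2 fold change of 1.50 (SE 0.22, edgeR adjusted p = 0.000825). *mt-Co3*, a core subunit of cytochrome c oxidase, had 660, 769 and 1190 FPKM in WTK, 220, 242 and 211 in IgGK and 585, 656 and 455 in LepK, and its log2 fold change in LepK was 1.31. Both belong to the copied stretch, where the median was 1.07 in LepK against IgGK, beside 0.76 for the 7 other mt- genes, all of which were higher. *mt-Co1* had a log2 fold change of 0.66, *mt-Cytb* 0.83 and *mt-Nd1*, a core subunit of complex I, 0.65. *mt-Nd4l* (63.1, 18.1 and 25.9 FPKM in IgGK and 77.0, 53.4 and 48.2 in LepK) and *mt-Atp8* (2.22, 3.72 and 4.67 against 4.38, 6.19 and 4.59) overlapped and were not called. LepK replicate 1 had the highest FPKM of the 3 LepK libraries for every mt- gene but *mt-Co3* and *mt-Atp8*.

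Against vehicle kidney, LepK was still lower for some members. Of the nuclear members 10 were lower and 2 higher, beside 7.3% and 15.2% of all genes, and 61 were lower at the adjusted p alone, beside 18.6% of all genes. The lowest were *Atp5b* (log2 fold change -0.72, edgeR adjusted p = 5.72e-05), *Uqcrc2* (-0.69), *Ndufs1* (-0.65), *Sdha* (-0.59) and *Sdhb* (-0.59). *Cox8b* (1.98) and *Cox6b2* (0.88) were higher. Of the mt- members 3 were lower, *mt-Nd4* (-0.52), *mt-Co3* (-0.61) and *mt-Atp8* (-1.08), and this count was 8 without LepK replicate 1 and 0 without LepK replicate 3. The median log2 fold change was -0.48 for mt- and -0.25 for nuclear members. With library-size scaling, which put the median of all genes at 0.29, the nuclear median turned to 0.013, 3 nuclear members were higher and no member was lower. Counts with this scaling and with libraries left out are given without the share of all genes called. The 3 kidney comparisons share libraries, so their fold changes are not independent of each other. In the group means, LepK lay between IgGK and WTK for all 13 mt- members and 75 of 84 nuclear members with WTK highest. For 4 nuclear members the order was the reverse. Among the 75 nuclear members with LepK between and WTK highest, LepK stood at a median of 51.1% of the way from IgGK to WTK. For the 13 mt- members it was 52.9%. This selection keeps each value between those of IgGK and WTK.

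Markers of several kidney cell types also differed in these comparisons. All 10 proximal tubule markers were lower in IgGK than in WTK, with sums of 41283 to 44149 FPKM in WTK, 10122 to 16941 in IgGK and 23188 to 32515 in LepK, and 8 of 10 were higher in LepK than in IgGK. None was at 0. All 5 injured tubule markers were higher in IgGK and lower in LepK, with sums of 1.99 to 3.22, 122 to 127 and 51.3 to 68.3 FPKM in WTK, IgGK and LepK. Of 6 macrophage markers 6 were higher in IgGK and 5 lower in LepK, and all 6 fibroblast markers were higher in IgGK and lower in LepK. Of 5 collecting duct markers 3 were lower in IgGK and 3 higher in LepK. Of 6 markers of thick ascending limb and distal tubule 1 was higher and 2 were lower in IgGK, and 4 were higher in LepK. Of 7 pericyte and smooth muscle markers 2 were higher and 2 lower in IgGK, and 2 were higher in LepK. Of 5 endothelial markers 2 were lower in IgGK and none was called in LepK. All 5 erythroid markers were higher in LepK than in IgGK, and none was called in IgGK against WTK. The part of cell composition in the members' values was not tested.

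Other genes of the pathway were read from fixed lists. In IgGK against WTK, where 15.6% of all genes were called lower, 13 of 15 enzymes of the TCA cycle, which supplies the chain with NADH and succinate, were lower (median log2 fold change -0.91), with none higher. Among them *Suclg2*, a subunit of succinyl-CoA synthetase, was at -1.33. Of the electron carriers and coenzyme Q enzymes 9 of 12 were lower (median -0.60), among them *Cycs*, cytochrome c, at -1.22. For assembly factors the count was 23 of 50 (median -0.49), for mitochondrial ribosomal proteins 33 of 77 (-0.48), for genes that express or maintain mtDNA 10 of 26 (-0.41) and for outer membrane proteins 3 of 7 (-0.39). No gene of these lists was higher. Among the genes of mtDNA expression were *Lrpprc*, which stabilizes mt- mRNA, at -1.03 and *Polrmt*, the mitochondrial RNA polymerase, at -0.70.

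The same lists were read for LepK against IgGK, where 4.38% of all genes were called higher. The counts higher in LepK than in IgGK were 2 of 15 for the TCA cycle (*Ogdh* 0.54 and *Suclg2* 0.53), 3 of 50 for assembly factors (*Ndufaf6* 0.59, *Ecsit* 0.57 and *Coa8* 0.50, with *Cox17* lower at -0.51) and 0 for carriers, ribosomal proteins, mtDNA expression and outer membrane. The medians were 0.39, 0.26, 0.25, 0.25, 0.19 and 0.22. Of 14 regulators, 5 were lower in IgGK than in WTK, namely *Ppara* (-1.54), *Esrrb* (-1.21), *Esrra* (-0.89), *Ppargc1a* (-0.77) and *Perm1* (-0.52). None was called higher. At the adjusted p alone, *Pprc1* (0.44), *Gabpb1* (0.33) and *Hif1a* (0.21) were also higher in IgGK. *Epas1*, *Gabpa*, *Esrrg* and *Ppargc1b* were also lower at the adjusted p alone. *Ppargc1a*, the coactivator PGC-1alpha known to drive mitochondrial biogenesis, had 8.34 to 8.95 FPKM in WTK, 4.76 to 5.22 in IgGK and 6.27 to 6.89 in LepK. *Esrra*, its nuclear receptor partner, had 37.6 to 38.6, 19.6 to 20.9 and 25.6 to 31.7 FPKM. Both were ordered as the subunits were. In LepK against IgGK only *Esrrb* was called (0.97, edgeR adjusted p = 0.00109). *Esrra* (0.46, edgeR adjusted p = 0.00196) and *Ppargc1a* (0.36, edgeR adjusted p = 0.00304) passed the adjusted p but not the fold threshold. So did *Pprc1*, which was lower (-0.27, edgeR adjusted p = 0.0446). *Ppara*, with the largest fall in IgGK, was at -0.020, *Esrrg* at 0.018 and *Ppargc1b* at 0.0069. The median of the 14 regulators was 0.031.

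The third comparison asked what LepAb changed in bleomycin-injured lung. In LepL against IgGL a single nuclear member, *Cox7a1*, was higher, none was lower, and no mt- member was called by edgeR, beside 4.14% of all genes called (1.78% higher and 2.36% lower). The median log2 fold change was 0.034 for nuclear members and 0.52 for mt- members, beside 0.0033 over all genes. At an unadjusted p under 0.05, 10 of 13 mt- and 11 of 84 nuclear members passed, beside 27.3% of all genes. All 13 mt- members had a positive value, and 12 did not overlap between the groups, beside 33.3% of all genes. DESeq2 called 4 mt- members, and edgeR called 6 with no filter on low counts and 5 without IgGL replicate 1. Without IgGL replicate 2, edgeR called 0. The share of all genes called under these settings is not given here, so these counts have no such share to be read against.

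The mt- gene nearest to the threshold was *mt-Nd2*, a subunit of complex I, with 805, 671 and 556 FPKM in IgGL and 958, 1169 and 1246 in LepL (log2 fold change 0.70, SE 0.17, edgeR adjusted p = 0.0513). *mt-Co3* had 27.8, 27.6 and 24.0 FPKM in IgGL and 46.5, 32.5 and 79.3 in LepL (0.96, adjusted p = 0.0714). *mt-Cytb* had 1736, 1543 and 1444 FPKM in IgGL and 2035, 2396 and 2233 in LepL (0.47, adjusted p = 0.0839). In all 3 genes each LepL library was above each IgGL library. *mt-Co1* had a log2 fold change of 0.30 (95% interval -0.14 to 0.75).

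*Cox7a1* (ENSMUSG00000074218, chromosome 7, 29883569 to 29885503), the subunit 7A isoform of heart and skeletal muscle, had 5.16, 3.62 and 1.34 FPKM in IgGL and 11.9, 12.5 and 17.5 in LepL. The groups did not overlap, and the log2 fold change was 2.02 (SE 0.41, edgeR adjusted p = 0.0391). The call was lost without IgGL replicate 2 or 3 and without each LepL library, and the count of nuclear members called was then 0, while it was 3 without IgGL replicate 1. *Cox8b* had 19.2, 12.7 and 4.92 FPKM in IgGL and 24.6, 25.8 and 29.4 in LepL, and *Cox6a2*, another muscle isoform, had 8.04, 16.7 and 7.98 against 13.8, 21.4 and 24.6. Their log2 fold changes were 1.09 and 0.84 and did not pass (edgeR adjusted p = 0.117 and 0.138). Summed levels of muscle and brown fat markers were higher in LepL as well. The sum of 6 skeletal muscle markers was 98.8 to 349 FPKM in IgGL and 359 to 837 in LepL (0 of 6 called), and that of 6 cardiac muscle markers was 43.4 to 52.1 and 81.1 to 218 (2 of 6 higher), with no marker at 0 in lung. Brown adipocyte markers summed to 1.21 to 10.2 FPKM in IgGL and 20.7 to 28.03 in LepL (2 of 4 higher), with *Elovl3* at 0 counts in IgGL replicate 2. Of 5 alveolar type 2 markers 3 were higher in LepL, with sums of 3147 to 6351 FPKM in IgGL and 9477 to 13202 in LepL. Lower in LepL were 3 of 6 fibroblast, 3 of 7 pericyte and smooth muscle and 1 of 6 macrophage markers, and 1 of 3 adipocyte markers tested was higher. The part of these cells in the values of the subunits was not tested.

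The pathway lists held few calls in lung. None of the TCA cycle, carrier, assembly, mtDNA expression, ribosomal or outer membrane genes passed in LepL against IgGL, and their medians lay between -0.08 and 0.09. Among the regulators only *Ppargc1a* passed, at a log2 fold change of 1.04 with 0.276 to 0.454 FPKM in IgGL and 0.748 to 0.798 in LepL.

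The antibody's effect was then compared between organs as the kidney difference (LepK minus IgGK) minus the lung difference (LepL minus IgGL). It was higher in kidney for 16 of 84 nuclear members and 1 of 13 mt- members and lower for none, beside 3.51% of all genes called higher, 3.62% lower and 7.12% in all. At an unadjusted p under 0.05, 53 nuclear and 2 mt- members passed, beside 25.4% of all genes. The median of the difference was 0.33 for nuclear and 0.34 for mt- members, beside -0.0073 over all genes. *Atp5b* led the nuclear members (0.70, SE 0.16, edgeR adjusted p = 0.0244), with 470, 384 and 400 against 307, 264 and 296 FPKM in kidney but 97.9, 100.3 and 100.1 against 103, 105 and 118 FPKM in lung. *Sdhb* (0.68), *Cox5b-ps* (0.68) and *Uqcrc1* (0.66) followed. *mt-Atp6* (1.12, adjusted p = 0.0375) had 34.8, 37.5 and 36.03 FPKM in IgGL and 40.4, 58.8 and 48.2 in LepL. No nuclear or mt- member was called without IgGK replicates 1 and 2, and single libraries set the nuclear count as well: it was 0 without IgGK replicate 2, IgGL replicate 2, LepK replicate 1 or LepL replicate 3, and 35 without IgGL replicate 1. Without IgGK replicate 1, LepL replicate 1 or LepL replicate 2 it was 4, without IgGK replicate 3 it was 3, without IgGL replicate 3 or LepK replicate 3 it was 6, and without LepK replicate 2 it was 9. The mt- count was 1 without IgGL replicate 1 or LepL replicate 2, 2 without LepK replicate 3 and 0 without any of the 9 others. With library-size scaling, 2 nuclear members were higher and 2 lower. None of the counts with this scaling or with libraries left out has a share of all genes called beside it.

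**Figure D4:**
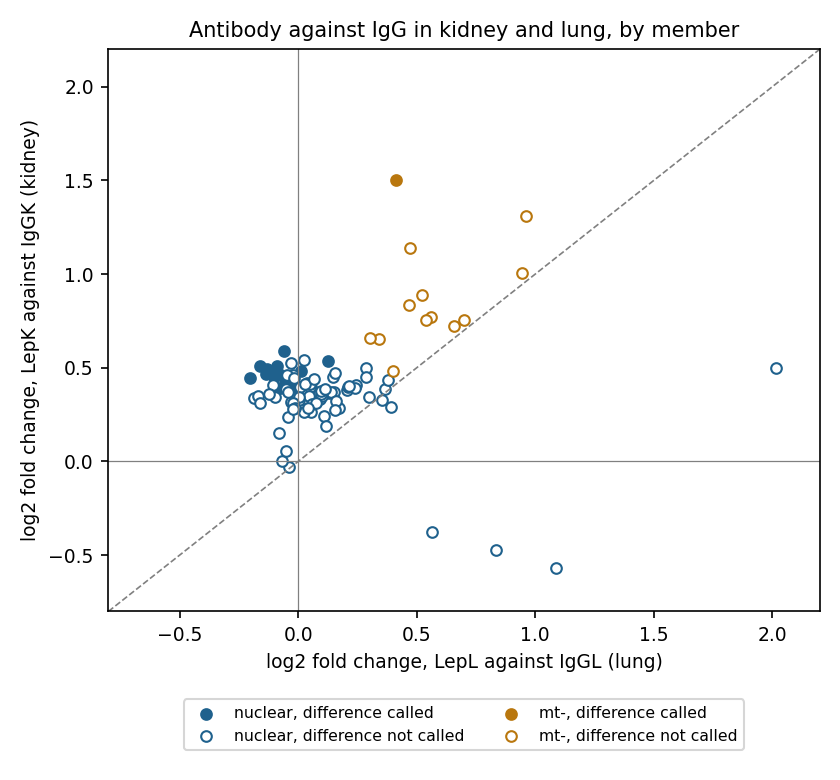
Log2 fold change of each member with LepAb against IgG in lung (x axis) and kidney (y axis), with nuclear and mt- encoded members in different colors. Filled points are the 17 members for which the difference between organs was called, and the dashed line marks equal values. Nuclear members sit near 0 in lung with a median of 0.034, all mt- members lie above 0 in both organs, and *Cox7a1* is the point at 2.02 in lung.

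Kidney and lung differed in the level of nearly every member. All 13 mt- and 78 of 84 nuclear members were higher in IgGK than in IgGL and 3 nuclear members were lower, beside 26.3% and 24.2% of all genes. Without IgGK replicates 1 and 2 these counts were 13, 79 and 3. Those 2 shares of all genes belong to the fit with all libraries, and none is given for the fit without the 2 replicates. The median log2 fold change was 2.24 for mt- members and 1.32 for nuclear members. In mean FPKM, all 13 mt- members and 78 of the 86 nuclear members with a count were lower in both lung groups than in every kidney group. Vehicle kidney was the highest of the 5 groups for 75 nuclear members and all 13 mt- members. *Cox7a1* (1.96), *Atp5g1* (1.90), *Ndufa12* (1.85), *Uqcr10* (1.81) and *Ndufb9* (1.76) had the highest values of the nuclear members in IgGK against IgGL, and *Atp5g1* and *Ndufa12* share reads with copies.

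The 3 members higher in lung were *Cox4i2*, *Cox6a2* and *Ndufa4l2*. *Cox4i2* (ENSMUSG00000009876, chromosome 2, 152596093 to 152606957), the isoform of subunit 4 known from lung and induced by low oxygen, had 32.8 to 35.9 FPKM in IgGL and 0.964 to 1.69 in IgGK, and its log2 fold change was -4.71 (SE 0.24, edgeR adjusted p = 1.42e-09). *Cox6a2* was at -3.56 and *Ndufa4l2*, a relative of *Ndufa4* induced by hypoxia, at -1.31. As a share of the FPKM of both subunit 4 isoforms, *Cox4i2* held 0.158, 0.412 and 0.308% in WTK, IgGK and LepK and 20.6 and 20.2% in IgGL and LepL. *Ndufa4l2* held 1.26, 3.21 and 2.30% of the pair in the kidney groups and 17.8 and 17.2% in the lung groups. Both shares overlapped between the lung groups, with *Cox4i2* at 18.3 to 22.9% in IgGL and 18.1 to 21.5% in LepL.

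Other isoform pairs moved with the groups. *Cox7a2l* held 21.9 ± 0.769% of the FPKM of *Cox7a2l* and *Cox7a2* in WTK, 33.4 ± 1.28% for IgGK and 27.5 ± 1.39% for LepK (SD, n = 3 libraries), and the 3 groups did not overlap. *Cox7a1* held 5.49 ± 3.33% of its pair with *Cox7a2* in IgGL and 18.6 ± 3.03% in LepL, but 6.80 to 7.82% in the means of the kidney groups. *Cox8b* held 0.600, 4.77 and 2.63% of its pair with *Cox8a* in WTK, IgGK and LepK and 5.92 and 11.8% in IgGL and LepL. *Cox7b2* was listed at 0 in 14 libraries and at 0.33 FPKM in LepK replicate 3, and *Cox8c* had no count in any library.

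**Figure D5:**
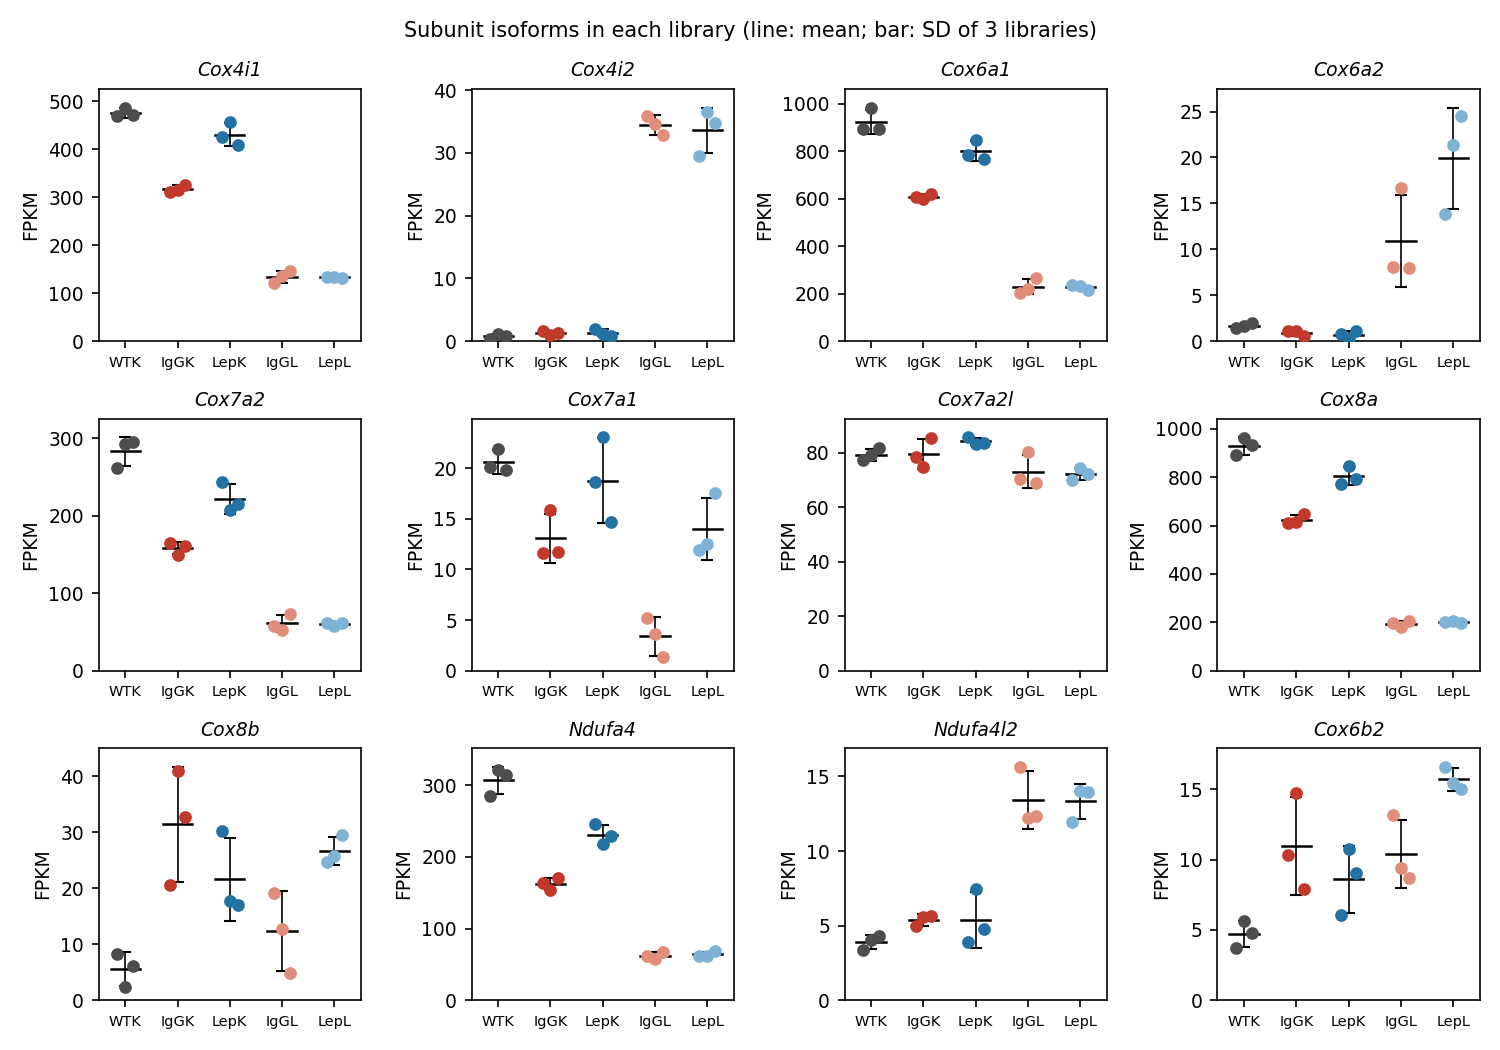
FPKM of 12 subunit genes with alternative isoforms in each library of the 5 groups (points), with the mean (line) and the SD of 3 libraries (bar). The common isoforms *Cox4i1*, *Cox6a1*, *Cox7a2*, *Cox8a* and *Ndufa4* are lowest in lung and lower in IgGK than in WTK, *Cox4i2* and *Ndufa4l2* are highest in lung, and *Cox7a2l* lies between 68.7 and 85.6 FPKM in all libraries.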

How the data were processed

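Poly(A)-enriched, non-directional RNA libraries of kidney and lung were sequenced, and the labels put 3 libraries in each of 5 groups. The authors deposited raw read counts per gene and FPKM values for each library, and the aligner, counter and gene annotation are not given in the sources used here. The submitters' processing notes name the GRCm39 (mm39) build, DESeq and DESeq2. In the FPKM values that the authors deposited, a count is divided by gene length and by an effective library size of 1.02 to 1.46 times the total count. Group means and the authors' own fold changes and p-values in the table were not used.

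The counts were fitted with edgeR 4.0.16 in R 4.3.3 (quasi-likelihood test, TMM scaling, genes kept by filterByExpr with a minimum count of 10 and minimum total of 15), over 9 kidney libraries, 6 lung libraries, or the 12 injured libraries for comparisons between organs. P-values were adjusted by the Benjamini-Hochberg method over all genes tested (19593, 19617 and 21488). A gene was called at an adjusted p under 0.05 and an absolute log2 fold change over 0.5, and the difference between organs at the adjusted p alone. FPKM describes levels, and fold changes come from the counts. The study gives the lung data as 3 mice per group and the kidney data as 3 per group, so libraries were taken as separate mice, which the labels do not state. A free-text line of some labels names another tissue or treatment than the title, the treatment field and the column code, which were followed here.

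The members, gene lists and tests were chosen with earlier results of these data known. Named genes are the 13 mt- members, the 5 called nuclear members with the highest and the 5 with the lowest log2 fold change per comparison (at 1 CPM or more), fixed isoform groups, 1 core subunit per complex and *Atpif1*. Other members and genes of the pathway lists that are named were chosen after their values were seen. On simulated counts, 200 genes, none of them with few counts, were changed by a log2 fold change of 1. The test recovered 81.5% for LepK against IgGK (19031 genes) and 69.5% for LepL against IgGL (19146 genes). For the difference between organs it recovered 35.5% (20811 genes). False calls were 8, 13 and 6 in the same order. Recovery of smaller changes, or of genes with few counts, was not simulated. Alternatives were DESeq2 1.42.0, other scalings, filters and thresholds, a replicate block, fits of the compared groups alone and leaving out libraries. Values of some genes are not reported here.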

Additional observations from a re-analysis of the deposited data

Results flagged for a closer look

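The log2 difference between the antibody's effect in kidney and in lung passed an adjusted p of 0.05 in edgeR for 17 members, all with the higher value in kidney. In complex I it was, among others, 0.4997 for *Ndufa4*, 0.587 for *Ndufa8*, 0.504 for *Ndufs3* and 0.581 for *Ndufv1*, and in complex II 0.682 for *Sdhb* and 0.442 for *Sdhc*. It was 0.659 for *Uqcrc1* of complex III. In complex IV it was 0.492 for *Cox4i1*, 0.579 for *Cox5a*, 0.681 for *Cox5b-ps*, a pseudogene by its name that the table lists as protein-coding, and 0.497 for *Cox7b*. In complex V it was 0.699 for *Atp5b*, 0.635 for *Atp5c1*, 0.517 for *Atp5d* and 0.627 for *Atp5g3*, and the mt- member was *mt-Atp6* at 1.124. The adjusted p-values ranged from 0.0231 for *Uqcrc1* to 0.0446 for *Cox4i1*. Organ, kind of injury and day of collection cannot be told apart in this difference. No member passed without IgGK replicates 1 and 2, a choice made after seeing the data.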

How the results depend on the processing

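The counts of 13 mt- members lower in IgGK than in WTK and 13 higher in IgGK than in IgGL stayed at most 1.5 times apart under the alternatives run. Counts that moved by over 1.5 times follow, without the share of all genes called under each setting. With a log2 threshold of 1, nuclear counts were 7 for IgGK and 1 for LepK against WTK and 0 for LepK against IgGK, and mt- counts were 1 for LepK against WTK and 4 for LepK against IgGK. With no fold threshold, 73 nuclear members were called in LepK against IgGK, and 63 nuclear and 8 mt- members in LepK against WTK. Library-size scaling gave nuclear counts of 12 (IgGK against WTK), 0 (LepK against IgGK) and 3 (LepK against WTK) and 4 for the difference between organs, and mt- counts of 0 for LepK against WTK and for that difference. DESeq2 gave 36 nuclear members for the difference between organs, and 3 nuclear and 4 mt- members in LepL against IgGL. With no filter, 4 nuclear and 6 mt- members were called in lung, 5 mt- members in LepK against WTK and 2 mt- members for the difference between organs. Upper-quartile scaling gave 7 nuclear members in LepK against WTK, 10 for the difference between organs and 1 mt- member in lung. Leaving out IgGK replicates 1 and 2, the libraries with the most adrenal transcripts, chosen after seeing the data and with the lone IgGK library assumed to vary like the other groups, gave 3 nuclear members in LepK against IgGK and 0 nuclear and 0 mt- members for the difference between organs.

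Leaving out 1 library at a time, nuclear counts ranged from 63 to 73 for IgGK and 8 to 17 for LepK against WTK, from 2 to 15 for LepK against IgGK, from 0 to 3 between the lung groups, from 0 to 35 for the difference between organs and from 81 to 82 for IgGK against IgGL. The mt- counts ranged from 13 to 13, 0 to 8, 10 to 12, 0 to 5, 0 to 2 and 12 to 13 in the same order. Reversed values were *Atp5g2* in IgGK against WTK (0.18, library-size scaling), *Cox7a2l* in the same comparison (-0.013 without IgGK replicate 3, up to 0.092 without IgGK replicate 2), *Cox6b2* in LepK against IgGK (0.10, without IgGK replicates 1 and 2) and the nuclear median in LepK against WTK (0.013, library-size scaling). The nuclear median in LepL against IgGL, 0.034, was -0.0045 without IgGL replicate 2. Ranges of counts with libraries left out are also given without the share of all genes called. For single members, 1769 of 2107 alternative values kept direction and call. The causes were not tested, beyond fewer libraries where libraries were left out.

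With the replicate number as a block, nuclear counts were 65 for IgGK and 12 for LepK against WTK, 6 for LepK against IgGK, 0 between the lung groups, 7 for the difference between organs and 81 for IgGK against IgGL, and mt- counts were 13, 3, 11, 0, 0 and 13. With this block, too, the share of all genes called is not given here. Correlations of same-numbered libraries' deviations were 0.18, 0.17 and -0.03 between IgGK and LepK. They were from -0.06 to 0.07 in the other pairs of groups in the kidney and lung fits. Whether same-numbered IgGK and LepK libraries share more than a number was not tested. At this depth, 1 count was worth 0.0257 to 0.0386 CPM, and members with few counts such as *mt-Atp8* have wide intervals.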
